A study of Mus musculus with 4 samples.

Results

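Hepatic stellate cells were followed through 10 marker genes, Lrat, Lhx2, Pdgfrb, Ngfr, Rgs5, Hgf, Bmp5, Reln, Ecm1 and Colec11, chosen by name out of 30026 genes on the array. All 10 were found, and all 10 were well above background on every array. The study measured RNA in the liver of C57BL/6N mice with 1-colour Agilent arrays, a slide of 60-base probes on which brightness reports the amount of a transcript. The 4 groups were Pnpla7-/- (KO) liver at 6 weeks of age, wild-type (WT) liver at 6 weeks, KO liver at 3 weeks and WT liver at 3 weeks. Each group was 1 array hybridised with RNA pooled in equal amounts from 5 animals, so no difference has a replicate check and animals within a pool cannot be separated. Which part of Pnpla7 was deleted, and the sex of the animals, are not given in the sources used here. PNPLA7 breaks down lysophosphatidylcholine.

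Stellate cells lie in the space of Disse between hepatocytes and sinusoidal endothelium, and in the healthy liver they store vitamin A as retinyl esters in lipid droplets. They are also the liver's pericytes, secrete growth factors and matrix components, and after injury turn into collagen-producing myofibroblasts. In whole-liver RNA most of their markers are a small part of the total, and fewer cells of a type and less RNA per cell cannot be told apart.

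Signals below are multiples of the 75th percentile of their array, and a ratio of signals is given on the log2 scale. The hepatocyte gene Alb, albumin, was bright throughout, at 382 in KO and 338 in WT at 6 weeks, and at 350 in KO and 365 in WT at 3 weeks. The single Pnpla7 probe read 4.42 in KO and 9.65 in WT at 6 weeks, and 6.70 in KO and 7.54 in WT at 3 weeks. Since the deleted part is not known, this probe does not check the genotype of either pool, and every direction rests on the labels. Of 43020 spots, between 28714 and 30697 per array were well above background. The KO array at 6 weeks was the least even: the median variation between spots of the same probe was 7.31% there, against 4.72% to 4.81% on the other arrays, and 1 of its 10 quality metrics was out of range. All 15 skeletal muscle markers listed were higher in KO at both ages, with median log2 ratios, bounds included, of 5.15 for 6 weeks and 7.24 for 3 weeks. Their signals summed to 47.3 in KO and 1.46 in WT at 6 weeks, and to 72.2 in KO and 0.678 in WT at 3 weeks. All 4 arrays lay on 1 slide, where a position effect and a group difference cannot be told apart.

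At 6 weeks all 10 stellate markers were lower in KO than in WT, while at 3 weeks 8 were higher, 7 of them slightly, and 2 slightly lower. Their median log2 ratio stood at -0.42 for 6 weeks, ranging from -0.77 for Ngfr to -0.05 for Rgs5, against 0.05 over all 21331 genes with a ratio. For 3 weeks it stood at 0.07, ranging from -0.12 for Lrat to 0.75 for Rgs5, against 0.00 over all 21142 genes with a ratio. None of the 10 reached 2-fold at either age. Over all genes tested 6.49% were higher and 4.54% lower by 2-fold or more at 6 weeks, and 2.86% higher and 2.9% lower at 3 weeks. Genes lower in KO at 6 weeks by any amount made up 44.3% of those tested and genes higher 55.5%, beside the 10 of 10 stellate markers. The markers were chosen with earlier results of these data known, so this contrast is a description and not a test. At least 1.5-fold lower were 4 markers, Ngfr, Hgf, Lrat and Colec11, where the share of all genes was 10.4%, and no marker was as much higher, where 12.4% of all genes were. At 3 weeks 49.1% of all genes were higher and 48% lower by any amount. By 1.5-fold or more, 1 marker, Rgs5, was higher and none lower at 3 weeks, against 5.05% and 5.48% of all genes.

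With 1 array per group, the error of a single ratio was gauged from the spread between spots of the same probe within an array. It was taken from probes printed 10 times, in 3 ranges of signal. The median probe of each range set the bar, as 2 SD of a ratio. For the log2 KO/WT ratio at 6 weeks it was 0.33 for signals of 0.05 to 0.2, 0.23 for 0.2 to 2 and 0.20 above 2. In these ranges the SD of a ratio at 6 weeks was 0.16, 0.12 and 0.10 for the median probe. In the upper tail of probes it was 0.34, 0.24 and 0.27, so a ratio beyond its bar can lie within the spread of a more variable probe. The bars at 3 weeks were 0.28, 0.18 and 0.17. At 6 weeks 7 of 10 markers were lower by more than their bar, as were 21.4% of all genes bright enough to be set against one, while 27.7% were higher by more than theirs. Reln, Lhx2 and Rgs5 were within it. The bar was chosen after the data were seen, first at 1.96 SD, which put 8 markers beyond it at 6 weeks, and then at 2 SD, which put 7. The marker that changed sides is Reln, whose ratio of -0.32 lies at its bar, so its side depends on the multiple taken. At 3 weeks Rgs5 was above its bar and the other 9 markers were within theirs, where 13% of all genes were above and 13.6% below. The bars leave out differences between pools of animals, so a ratio beyond its bar is not shown to belong to the genotype.

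**Figure D1:**
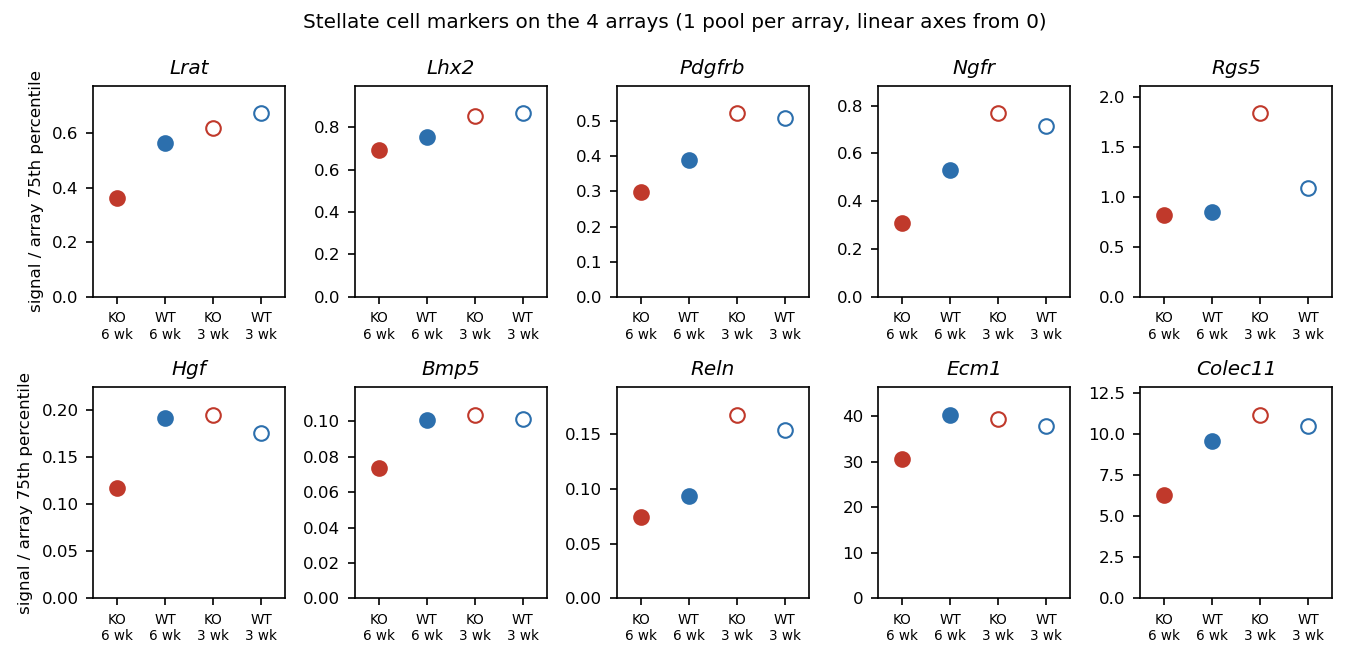
Signal of each stellate marker on the 4 arrays, as a multiple of the array's 75th percentile on linear axes that start at 0 (1 pool and 1 array per point, KO red, WT blue, 6 weeks filled, 3 weeks open). The KO array at 6 weeks is the lowest point in all 10 panels.

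On the KO array at 6 weeks every one of the 10 markers had its lowest signal of the 4 arrays. Among the 18870 genes that every array detected well above background, 27.2% had theirs there. The highest signal was that of KO at 3 weeks for 7 markers, that of WT at 3 weeks for Lrat and Lhx2, and that of WT at 6 weeks for Ecm1. Of the same genes 39.1% were highest in KO and 22.3% in WT at the age of 6 weeks, and 18.8% in KO and 19.8% in WT at that of 3 weeks. The order KO at 6 weeks, then WT at 6 weeks, then both 3-week arrays, from low to high, was found for 8 markers and for 13.9% of these genes. Among these markers, Bmp5 and Colec11 differed little between ages in WT. Their log2 ratios of 6 over 3 weeks there were -0.01 and -0.13, both within their bars.

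Lrat encodes lecithin retinol acyltransferase, which takes a fatty acid from phosphatidylcholine to esterify retinol and so makes the retinyl esters that stellate cells store. It was read at chr3:82696805-82696864 of mouse build mm9, on the minus strand. Its signal was 0.362 in KO and 0.564 in WT at 6 weeks, and 0.619 in KO and 0.671 in WT at 3 weeks. The KO array at 6 weeks was the lowest, and WT too was lower at 6 than at 3 weeks, by a log2 ratio of -0.25 against a bar of 0.17. The log2 KO/WT ratio was -0.64 at 6 weeks and -0.12 at 3 weeks, the first larger than the spread between spots and the second within it.

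Lhx2 encodes a LIM homeodomain transcription factor that keeps stellate cells in their quiescent state in mice. The probe lies at chr2:38224933-38224992 of mm9, plus strand. It gave 0.695 in KO and 0.754 in WT at 6 weeks, and 0.854 in KO and 0.866 in WT at 3 weeks. These were the most even values of the 10, with the highest array 1.25-fold above the lowest. Neither KO/WT ratio, -0.12 at 6 weeks and -0.02 at 3 weeks, exceeded its bar.

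Of the receptors, Pdgfrb encodes the beta receptor for platelet-derived growth factor, a mitogen receptor of stellate cells and pericytes. Its signal, at chr18:61244606-61244665 of mm9 on the plus strand, was 0.300 in KO and 0.390 in WT at 6 weeks, and 0.522 in KO and 0.509 in WT at 3 weeks. Both 6-week arrays lay under both 3-week arrays, and the log2 KO/WT ratio was -0.38 at 6 weeks, beyond its bar, and 0.04 at 3 weeks, within it.

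Ngfr encodes the low-affinity neurotrophin receptor p75, and its probe, at chr11:95430211-95430270 of mm9 on the minus strand, was printed in 10 spots per array. The spots averaged 0.311 ± 0.017 in KO and 0.530 ± 0.016 in WT at 6 weeks, and 0.768 ± 0.032 in KO and 0.715 ± 0.015 in WT at 3 weeks (SD between spots, n = 10 spots of 1 pool each). At 6 weeks the KO spots ran from 0.288 to 0.338 and the WT spots from 0.507 to 0.553, so they did not overlap. At 3 weeks the KO spots ran from 0.728 to 0.833 and the WT spots from 0.692 to 0.736, and these overlapped. The log2 KO/WT ratio of -0.77 at 6 weeks was the largest among the 10 markers, against 0.10 at 3 weeks. Spots of an array share their RNA and are not replicates of the condition. Ratios beyond the spread between spots were common at 6 weeks, with 21.4% of all genes bright enough for a bar lower and 27.7% higher.

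**Figure D2:**
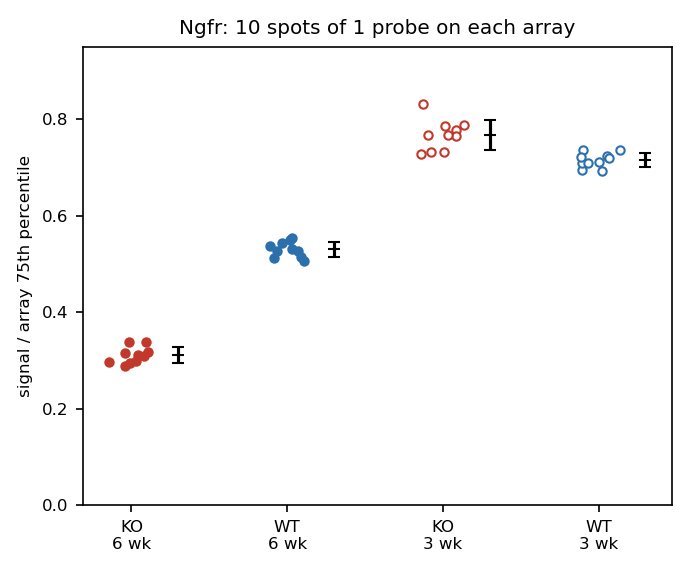
Signal of the Ngfr probe in each of its 10 spots on the 4 arrays, as a multiple of the array's 75th percentile, with the mean and SD over spots in black. The KO spots at 6 weeks, 0.288 to 0.338, lie under all spots of the other arrays.

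Rgs5 encodes a regulator of G-protein signalling found in pericytes and vascular smooth muscle as well as in stellate cells. At chr1:171623021-171623080 of mm9, plus strand, it read 0.817 in KO and 0.847 in WT at 6 weeks, and 1.83 in KO and 1.09 in WT at 3 weeks. The KO array at 3 weeks stood out most, and it stood high. WT at 3 weeks also lay above both 6-week arrays, with a log2 ratio of 6 over 3 weeks in WT of -0.36, beyond its bar of 0.17. The log2 KO/WT ratio was 0.75 at 3 weeks, the single ratio of the 10 markers past its bar at that age, and -0.05 at 6 weeks. The 3-week ratio lay above 96.0% of all genes with a ratio. Genes of smooth muscle and pericytes lay on the same side, with 9 of the 9 tested higher in KO at 3 weeks and a median of 0.21. Among them Kcnj8 and Abcc9, subunits of the potassium channel of pericytes named here after their values were seen, had log2 ratios of 0.77 and 0.58. Other pericyte genes, also named after their values were seen, hardly differed at 3 weeks. Notch3 had 0.08 and Cspg4 0.17, and the marker Pdgfrb had 0.04. The skeletal muscle markers, 15 of 15 at least 2-fold higher in KO at 3 weeks, lay on the same side as Rgs5 too, and their part in the Rgs5 value was not tested.

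Hgf and Bmp5 encode secreted ligands. Hgf is hepatocyte growth factor, a mitogen for hepatocytes that in liver comes mainly from stellate cells and acts through the receptor Met. Its signal, at chr5:16124829-16124888 of mm9 on the plus strand, was 0.117 in KO and 0.191 in WT at 6 weeks, and 0.194 in KO and 0.175 in WT at 3 weeks. Here 3 arrays lay within a narrow range and the KO array at 6 weeks lay under it, with a log2 KO/WT ratio of -0.71 at 6 weeks and 0.15 at 3 weeks. Bmp5, a bone morphogenetic protein read at chr9:75746444-75746503 of mm9 on the plus strand, gave 0.0738 in KO and 0.101 in WT at 6 weeks, and 0.104 in KO and 0.101 in WT at 3 weeks. The log2 KO/WT ratios of Bmp5 were -0.45 and, at 3 weeks, 0.03. It shows the same shape as Hgf, with the KO array at 6 weeks apart from an even set of 3. Both probes were dim, where spots vary most.

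Reln, Ecm1 and Colec11 encode secreted proteins. Reelin is an extracellular glycoprotein best known from the developing brain, and in liver it marks stellate cells. Its probe, at chr5:21404915-21404974 of mm9 on the minus strand, read 0.0745 in KO and 0.0933 in WT at 6 weeks, and 0.167 in KO and 0.154 in WT at 3 weeks. Age separated these arrays more than genotype did, and the log2 KO/WT ratios of -0.32 at 6 weeks and 0.12 at 3 weeks were within the bar, the first barely.

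Ecm1, extracellular matrix protein 1, was read by 2 probes. The brighter, at chr3:95538120-95538178 of mm9, gave 30.5 in KO and 40.3 in WT at 6 weeks, and 39.3 in KO and 37.8 in WT at 3 weeks, with log2 KO/WT ratios of -0.40 and, at 3 weeks, 0.05. The second, whose 60 bases match within a span of 310 bases at chr3:95540094-95540403, gave 1.22 in KO and 1.87 in WT at 6 weeks, and 2.003 in KO and 1.80 in WT at 3 weeks. Its log2 KO/WT ratios were -0.62 and, at 3 weeks, 0.15, of the same sign as the first probe at each age. In both probes the KO array at 6 weeks was the lowest. The brighter probe read as high as the hepatocyte gene Cps1, at 37.7 in KO and 27.1 in WT at 6 weeks. Which cells gave the Ecm1 signal was not tested.

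Colec11 encodes collectin-11, a soluble lectin of the complement system. Its signal, at chr12:29279240-29279299 of mm9 on the minus strand, was 6.29 in KO and 9.60 in WT at 6 weeks, and 11.2 in KO and 10.5 in WT at 3 weeks. The probe has 1 spot per array. It had a log2 KO/WT ratio of -0.61 at 6 weeks and 0.09 at 3 weeks. Colec10, the related liver collectin that pairs with it, gave 3.91 in KO and 6.36 in WT at 6 weeks, and 6.70 in KO and 6.75 in WT at 3 weeks.

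**Figure D3:**
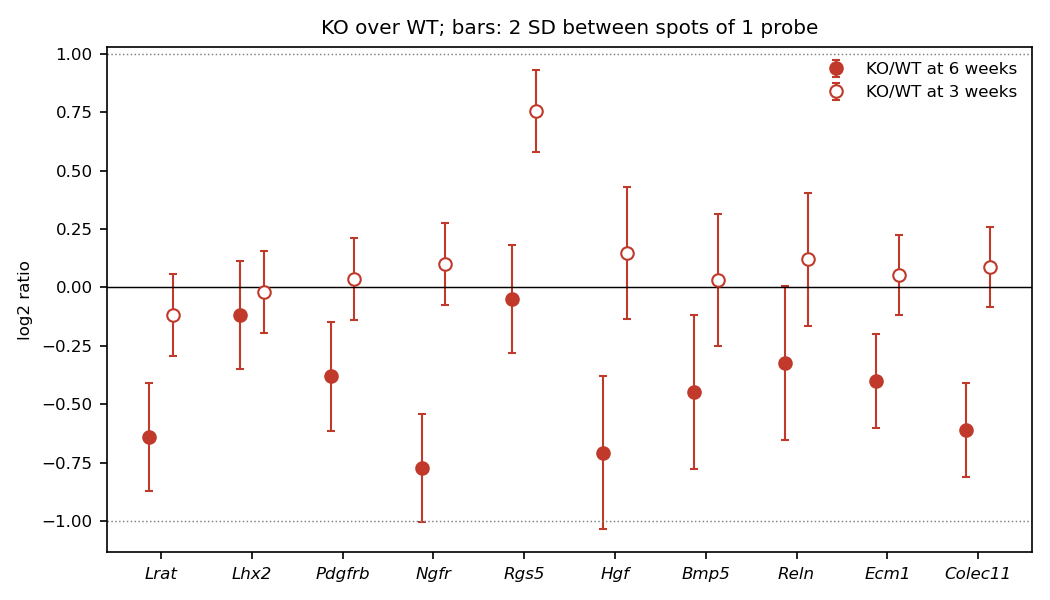
log2 ratio of KO over WT for each stellate marker at 6 weeks (filled) and 3 weeks (open). Vertical bars are 2 SD of a ratio from the median spread between spots of probes of like signal, and dotted lines mark 2-fold. All 10 filled points lie under 0, from -0.77 to -0.05, and Rgs5 is the open point at 0.75.

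The design also compares ages. In KO liver all 10 markers were lower at 6 than at 3 weeks, with a median log2 ratio of -0.79, against 0.06 over all 21669 genes with a ratio. Ngfr at -1.31, Reln at -1.17 and Rgs5 at -1.16 were at least 2-fold lower, where 6.26% of all genes were, and no marker was higher, where 6.02% of all genes were higher by as much. With normexp and quantile normalization Reln stood at -0.76 and 2 markers were 2-fold lower. By any amount 44% of all genes were lower and 54.7% higher. By 1.5-fold or more 7 markers were lower and none higher, against 13% and 13.3% of all genes. All 10 exceeded the bars, which ran from 0.20 to 0.33, and 23.8% of all genes were lower and 32.8% higher by more than theirs. In WT liver 8 of 10 were lower at 6 weeks, with a median of -0.22 against 0.01 over all 20985 genes with a ratio, and none was 2-fold lower or higher, where 5.85% and 3.64% of all genes were. Bmp5, at -0.01, stood above 0 under 3 of 7 alternatives, which leaves 7 of 10 lower. By any amount 48.4% of all genes were lower and 50.7% higher. By 1.5-fold or more Reln was the 1 marker lower and none was higher, against 10.8% and 8.19% of all genes. Reln had -0.72 in WT, Ngfr -0.43, Pdgfrb -0.38, Rgs5 -0.36, Lrat -0.25 and Lhx2 -0.20, all 6 beyond their bars, as were 24.3% of all genes in that direction and 27.5% in the other. Hgf at 0.12, Ecm1 at 0.09, Bmp5 at -0.01 and Colec11 at -0.13 were within theirs in WT. Lower at 6 weeks in both genotypes were 8 of the 10 markers, and 28.6% of the 18870 genes. The comparison of ages in KO and that of genotypes at 6 weeks share the KO array at 6 weeks, so they are not separate evidence.

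**Figure D4:**
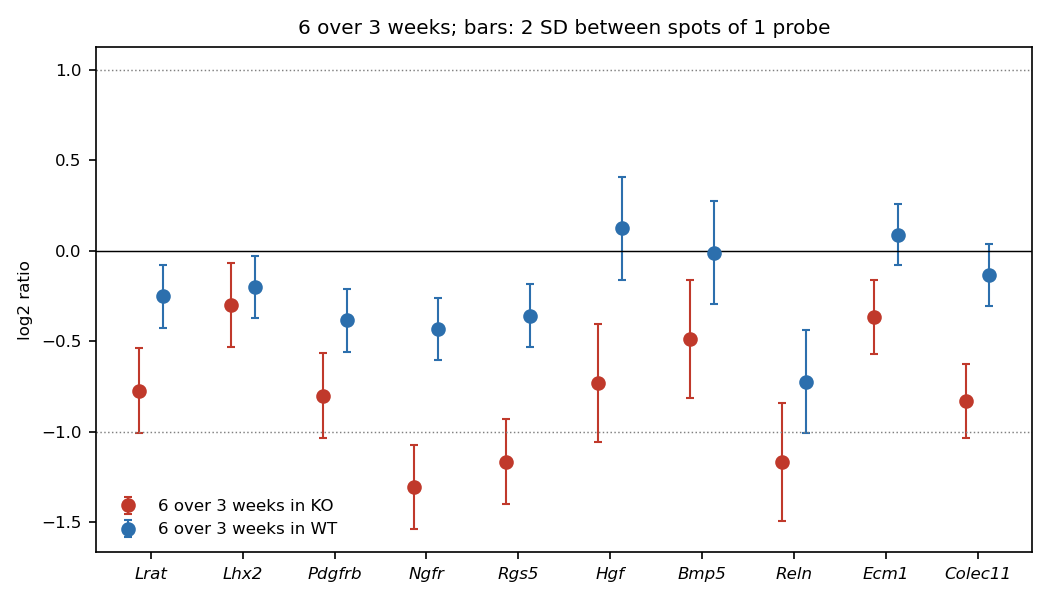
log2 ratio of 6 over 3 weeks for each stellate marker in KO (red) and WT (blue). Vertical bars are 2 SD from the median spread between spots, and dotted lines mark 2-fold. Every red point lies under its blue neighbour, from -1.31 for Ngfr to -0.30 for Lhx2.

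Across all 4 arrays, limma was fitted on 22646 genes with terms for age and genotype, which sets 2 KO against 2 WT pools and leaves 1 residual degree of freedom. It called 0% of genes for genotype and 0% for age after Benjamini-Hochberg adjustment, and none of the 10 markers for either. Unadjusted p-values under 0.05 were found for 1007 genes and 0 markers for genotype, and for 2307 genes and 1 marker, Reln, for age, or 4 markers with a trend in the prior or a filter on all 4 arrays. Reln was lower at 6 weeks by -0.94 ± 0.20 (log2, SE), with an adjusted p of 0.462 in limma. For genotype Lrat had the largest negative estimate, -0.38 ± 0.22 (log2, SE; limma adjusted p = 0.914). Rgs5 had the only positive estimate, 0.35 ± 0.29 (limma adjusted p = 0.914). A genotype difference present at 6 weeks and not at 3 weeks widens the spread in this fit.

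Because the markers lay on the same side at 6 weeks, the 250 bases before the RefSeq start (build GRCm38.p6) were read for the 9 markers listed in the promoter table, 11 windows in all. They are shown for Lrat at chr3:82903975-82904224, Ngfr at chr11:95587699-95587948, Reln at chr5:22344706-22344955 and Ecm1 at chr3:95739570-95739819, all on the minus strand. These are the retinoid enzyme, the marker furthest from WT at 6 weeks, the most GC-rich window and the 1 window with the exact string TATAAA. Each is written 5′ to 3′ in the direction of transcription, and capitals mark matches on either strand to 8 motifs: the TATA box TATAAA, the GC box GGGCGG, the CCAAT box, the homeodomain core TAATTA, the GATA site AGATAA, the E-box CACGTG, the nuclear receptor core AGGTCA and the AP-1 site TGACTCA.
Lrat: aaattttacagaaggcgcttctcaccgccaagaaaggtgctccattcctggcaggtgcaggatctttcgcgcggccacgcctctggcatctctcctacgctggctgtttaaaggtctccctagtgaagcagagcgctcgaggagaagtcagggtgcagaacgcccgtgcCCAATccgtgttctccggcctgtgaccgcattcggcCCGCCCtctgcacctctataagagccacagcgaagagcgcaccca
Ngfr: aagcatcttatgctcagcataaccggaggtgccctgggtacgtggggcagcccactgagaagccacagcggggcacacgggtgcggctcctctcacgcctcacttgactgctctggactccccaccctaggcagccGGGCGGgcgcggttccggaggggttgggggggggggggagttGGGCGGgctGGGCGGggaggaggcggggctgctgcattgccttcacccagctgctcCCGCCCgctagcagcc
Reln: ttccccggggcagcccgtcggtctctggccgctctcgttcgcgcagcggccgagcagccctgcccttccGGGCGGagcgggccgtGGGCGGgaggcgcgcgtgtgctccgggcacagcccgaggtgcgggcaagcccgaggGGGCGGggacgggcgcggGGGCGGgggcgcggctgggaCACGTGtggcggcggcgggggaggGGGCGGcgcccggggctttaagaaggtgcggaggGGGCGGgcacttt
Ecm1: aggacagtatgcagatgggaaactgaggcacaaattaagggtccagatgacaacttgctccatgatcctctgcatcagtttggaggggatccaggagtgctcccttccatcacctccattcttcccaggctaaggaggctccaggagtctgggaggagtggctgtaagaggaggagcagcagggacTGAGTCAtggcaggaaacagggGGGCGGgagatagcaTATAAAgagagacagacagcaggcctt
Reln holds 6 GC boxes (GGGCGG) and an E-box (CACGTG) in 80% G and C, and Ngfr holds 4 GC boxes in 70.4%. Ecm1 has a TATA box starting 27 bases before the start, and Lrat a GC box 45 and a CCAAT box 81 bases before it. GGGCGG was in 5 of the 11 marker windows, and in 32.7% of 32851 windows of all genes. TATAAA was in 1 of 11 (12.4% of all windows), CCAAT in 2 (33.8%), AGATAA in 2 (9.99%), CACGTG in 1 (6.02%) and TGACTCA in 1 (4.46%). TAATTA, the core of homeodomain sites such as that of LHX2, was in none (4.84% of all windows), nor was AGGTCA, the core of retinoid and other nuclear receptor sites (14.0%). No matches overlapped each other in these windows. No motif was common to all markers, and a match is a run of letters, not a binding site. Only these exact strings were searched, so variants such as other forms of the TATA box are not counted.

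Other stellate genes did not lie on the same side at 6 weeks as uniformly as the 10 markers. Of 20 listed, 11 were lower and 9 higher in KO, with a median log2 ratio of -0.07, and 1 was past 2-fold. That was Des, desmin, an intermediate filament protein of stellate and muscle cells, at 0.318 in KO and 0.0624 in WT at 6 weeks, and 0.270 in KO and 0.0679 in WT at 3 weeks. Its log2 ratios of 2.35 and, at 3 weeks, 1.99 lay beside those of the skeletal muscle markers, of which Tnnc2 had 5.87 and 8.73, and their part in it was not tested. Tcf21, a transcription factor of mesenchymal cells, had -0.59 at 6 weeks, and Steap4, a metalloreductase, -0.48. Ntm, a cell adhesion molecule, had 0.65. At 3 weeks the 20 had a median of 0.04, with 12 higher and 7 lower.

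Genes of retinoid handling, the pathway Lrat belongs to, showed no common direction at 6 weeks. Of 15, 6 were higher and 9 lower in KO, with a median log2 ratio of -0.06 and none past 2-fold. Cyp26a1, which degrades retinoic acid and is induced by it, gave 0.944 in KO and 0.585 in WT at 6 weeks, a log2 ratio of 0.69, and 0.0814 in KO and 0.112 in WT at 3 weeks, a ratio of -0.46. Cyp26b1, a related hydroxylase, had 0.39 at 6 weeks, while Rdh10, a retinol dehydrogenase, had -0.49 and Dhrs3, which reduces retinal to retinol, -0.44.

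Partners of the ligands and receptors were compared in the same way. For Hgf, the receptor Met read 0.438 in KO and 0.315 in WT at 6 weeks, a log2 ratio of 0.47, opposite in sign to its ligand, and -0.07 at 3 weeks. Spint1, an inhibitor of the protease that activates HGF, was lower in KO, at -2.40, and was the 1 of 9 genes of this group past 2-fold at 6 weeks. It was dim, at 0.0252 in KO and 0.133 in WT at 6 weeks, and 0.0635 in KO and 0.0850 in WT at 3 weeks. The KO signal at 6 weeks lay under 0.05, where the signal ranges of the bars begin, and WT at 6 weeks was the brightest array. Hpn, hepsin, a protease that cleaves HGF, had 0.36. For Pdgfrb, the ligand gene Pdgfc had -0.98 at 6 weeks and -0.56 at 3 weeks, Pdgfa had -0.17 and 0.30, and the alpha receptor Pdgfra 0.42 and 0.11. Of 6 genes of this group, 3 were higher and 3 lower in KO at 6 weeks. The ligand gene Pdgfd, named after its value was seen as the 1 past 2-fold, had 1.34.

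For Ngfr, neurotrophin-3 (Ntf3) gave 0.419 in KO and 0.134 in WT at 6 weeks, a log2 ratio of 1.64, and 0.138 in KO and 0.130 in WT at 3 weeks. The receptor kinases Ntrk3 and Ntrk2 had -2.23 and -1.01 at 6 weeks, and Sort1, sortilin, a co-receptor of p75, had -1.19. Ntrk3 was dim, at 0.0275 in KO and 0.129 in WT at 6 weeks, and 0.0357 in KO and 0.0499 in WT at 3 weeks. Only WT at 6 weeks stood out for it, and it stood high. By 2-fold or more, 1 of 7 tested genes of this group was higher and 3 were lower at 6 weeks. For Reln, the receptor gene Vldlr gave 3.42 in KO and 1.42 in WT at 6 weeks, a log2 ratio of 1.27, against -0.16 at 3 weeks. The other reelin receptor, Lrp8, was not well above background on any array.

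For Bmp5, 14 of 18 tested genes of BMP signalling were lower in KO at 6 weeks, against 44.3% of all genes. Their median log2 ratio of -0.11 was smaller in size than every bar for a KO/WT ratio at 6 weeks. Among common target genes of BMP signalling, not of Bmp5 alone, Id3 had -1.15, the inhibitory Smad7 -0.98, Id2 -0.57 and Id1 -0.28. Id3 was the 1 past 2-fold. The targets Hamp, hepcidin, and Smad6, named after their values were seen, had -0.04 and 0.05. At 3 weeks 8 of 18 were lower and the median was 0.01. For Id3, Smad7, Id2 and Id1, unlike Bmp5, WT at 6 weeks was the brightest array. Their log2 ratios of 6 over 3 weeks in WT were 0.74, 0.71, 0.77 and 0.54, where Bmp5 had -0.01. In KO those ratios were -0.36, -0.40, 0.22 and -0.10, against -0.49 for Bmp5. Whether these targets follow Bmp5 was not tested. For Colec11, 5 of 7 genes of the lectin complement pathway were lower in KO at 6 weeks, with a median of -0.31. Among these were Fcna, ficolin A of macrophages, at -0.84, Colec10 at -0.70 and Mbl1, a mannose-binding lectin, at -0.42, while Masp1, a protease they activate, was higher at 0.72.

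Genes of the myofibroblast state, led by collagens, were lower in KO at 6 weeks in 13 of 16, with a median log2 ratio of -0.36. The largest were Col3a1 at -1.18, Col1a1 at -1.002, Col1a2 at -0.67 and Col6a3 at -0.65. Acta2, smooth muscle actin and the usual sign of stellate cell activation, named here for that role after its value was seen, gave 0.547 in KO and 0.485 in WT at 6 weeks, and 0.773 in KO and 0.624 in WT at 3 weeks. At 3 weeks 15 of 16 were higher in KO, with a median of 0.22. Between ages the group was far lower at 6 than at 3 weeks in both genotypes, by a median log2 ratio of -1.56 in KO and -1.06 in WT.

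Most markers of other cells of the sinusoid lay on the same side as the stellate markers at 6 weeks. Kupffer cell markers were lower in KO in 11 of 11, with a median log2 ratio of -0.79 and 3 past 2-fold, among them Adgre1 (F4/80) at -1.54, Folr2 at -1.32 and Clec4f at -1.06. Their signals summed to 35.9 in KO and 63.8 in WT at 6 weeks, and to 68.2 in KO and 75.3 in WT at 3 weeks. Sinusoidal endothelial markers were lower in 9 of 12, with a median of -0.49, among them Cdh5, VE-cadherin, at -1.07 and Oit3 at -0.69. The 3 higher in KO, named after their values were seen, were Stab2 at 0.27, Lyve1 at 0.12 and Flt1 at 0.02. All 12 endothelial markers summed to 50.4 in KO and 64.0 in WT at 6 weeks, and to 63.3 in KO and 59.8 in WT at 3 weeks. The 10 stellate markers summed to 39.5 in KO and 53.3 in WT at 6 weeks, and to 55.5 in KO and 52.6 in WT at 3 weeks, sums made up mostly of Ecm1 and Colec11. Hepatocyte markers leaned the other way, with 6 of 8 higher in KO at 6 weeks, a median of 0.21 and Tat, tyrosine aminotransferase, at 0.96. These lists move with the stellate values, as does the greater spread between spots on the KO array at 6 weeks, and their part in them was not tested.

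Other cell types were mixed at 6 weeks. Portal fibroblast markers had a median log2 KO/WT ratio of 0.02 over 8 genes, with Mfap4, a microfibril protein, at -0.63 and Clec3b, tetranectin, at 0.84. Smooth muscle and pericyte markers had a median of 0.20 over 10 genes, with Mcam, an adhesion molecule of pericytes and endothelium, at 1.12 and Smtn, smoothelin, at -0.49. Mcam read 51.0 in KO and 23.4 in WT at 6 weeks, about as bright as the hepatocyte gene Cps1 at 37.7 and 27.1. Which cells gave the Mcam signal was not tested. Mesothelial markers stood at 0.32 over 5 genes tested, with Msln, mesothelin, at 0.60. Cholangiocyte markers stood at -0.28 over 7. At 3 weeks these medians were 0.24, 0.21, 0.21 and -0.08.

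**Figure D5:**
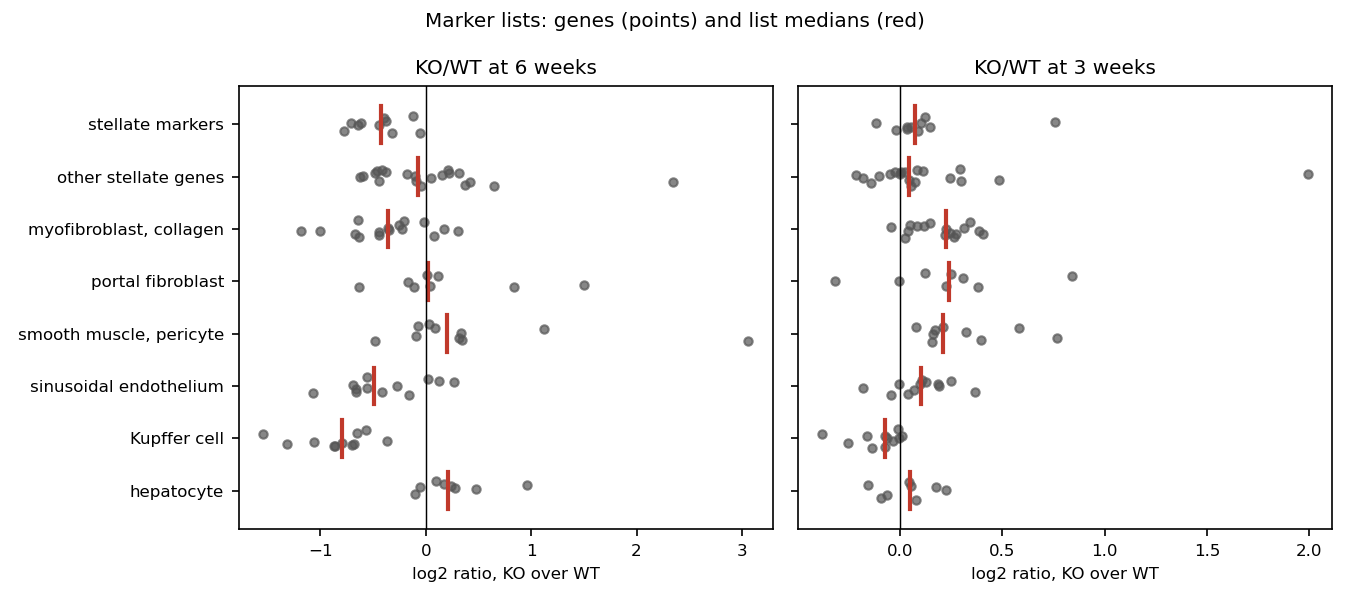
log2 ratio of KO over WT at 6 weeks (left) and 3 weeks (right) for the genes of 8 marker lists (points), with list medians in red. Genes above background on 1 of the 2 arrays only are drawn at their bound. At 6 weeks the medians of Kupffer, endothelial and stellate markers stand at -0.79, -0.49 and -0.42, and that of hepatocyte markers at 0.21.

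The genes whose centred log2 profile over the 4 arrays lay nearest to the median profile of the 10 markers, out of 15225 with a symbol, were Prrg1, Morf4l2 and Sap30. Their Euclidean distances were 0.036, 0.053 and 0.057 on the log2 scale. Prrg1, a membrane protein gene, read 0.111 in KO and 0.155 in WT at 6 weeks, and 0.186 in KO and 0.173 in WT at 3 weeks. With 4 arrays such likeness is a description only.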

How the data were processed

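Liver RNA of 4 groups was measured, 1 pool of 5 animals and 1 array each. Intensity, as deposited, came from Agilent Feature Extraction 11.5.1.1, which the submitters' processing notes name, with background subtraction and detrending within each array, per the file headers. The deposited files also hold other values, yes-or-no flags per spot for outliers and for signal over background. The authors' deposited value table is this intensity over each array's 75th percentile: the ratio of both lay between 0.9998 and 1.000 for every spot, and its column medians were 0.0798 and 0.0778 for KO and WT at 6 weeks and 0.0815 and 0.0797 at 3 weeks, so its scale, centring and direction are known.

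The log2 of the processed intensity was scaled to the 75th percentile of the 43020 non-control spots. Outlier spots (189 to 252 per array) were left out, no spot was saturated, and spots of a probe were averaged. The RefSeq gene table named 27508 of 39429 probes by accession, 3544 by symbol and 404 by synonym, and 7973 kept the file's name. The brightest probe stood for a gene. A gene entered a comparison where either array measured it well above background, and where only 1 did, the ratio is a bound. With 1 array per group a comparison has no test, and genes were counted at 2-fold. A model of age and genotype over the 4 arrays was fitted with limma 3.58.1 (R 4.3.3). Its code was also run on simulated data, with the same variance for every gene and the same genotype shift at both ages. That run checks the code and does not show how the model performs on these arrays. Other steps used Python 3.11.15, numpy 2.4.6 and pandas 2.3.3.

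The members, the 17 other gene lists and the motifs were chosen with earlier results of these data known, and the bars from the spread between spots after these results were seen. The rule named all members and up to 4 genes of each other list, those with the largest KO/WT ratio at 6 weeks among genes that every array detected, and the 3 genes nearest in profile. Genes named outside it were chosen after their values were seen. Alternatives were quantile normalization, normexp (offset 50) with quantile normalization, median scaling, averaging a gene's probes, keeping outlier spots, no filter, the value table the authors deposited, counts at 1.5-fold and at 3-fold, and for limma a trend in the variance prior or a filter on all 4 arrays. With 4 arrays, precision is limited by their number.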

Additional observations from a re-analysis of the deposited data

Results flagged for a closer look

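For 8 of the 10 stellate markers the log2 KO/WT ratio had opposite signs at the 2 ages, with 1 array per group, and the difference between ages was not tested. The ratio at 6 weeks minus that at 3 weeks was -0.87 for Ngfr, -0.86 for Hgf, -0.81 for Rgs5, -0.70 for Colec11, -0.48 for Bmp5, -0.46 for Ecm1, -0.44 for Reln and -0.42 for Pdgfrb. For Rgs5 the value came from the 3-week arrays, with ratios of -0.05 at 6 weeks and 0.75 at 3 weeks. For the other 7 the ratio at 3 weeks was within the spread between spots, so the sign there carries no weight.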

How the results depend on the processing

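All 10 markers were lower in KO than WT at 6 weeks, and lower at 6 than 3 weeks in KO, under each of the 7 alternatives of scaling, background correction, probe choice, outlier spots, filter and source. The median log2 KO/WT ratio at 6 weeks lay between -0.52 (quantile normalization) and -0.42, and at 3 weeks between 0.04 (median scaling) and 0.09 (mean of all probes). Median scaling moved the median of all genes for 6 over 3 weeks in KO to 0.11, and that of the markers to -0.73. Without the filter the median of all genes for KO/WT at 6 weeks was 0.14. At a 1.5-fold threshold the counts were 4 lower for KO/WT at 6 weeks, 1 higher for KO/WT at 3 weeks, 7 lower for 6 over 3 weeks in KO and 1 lower in WT, and at a 3-fold threshold 0 were lower for 6 over 3 weeks in KO. The bar from the spread between spots, chosen after seeing the data, held 8 markers beyond it for KO/WT at 6 weeks at 1.96 SD, 7 at 2 SD and 6 at 3 SD. At 3 SD it held 1 for KO/WT at 3 weeks, 8 for 6 over 3 weeks in KO and 4 in WT, and at 1.96 SD these 3 counts were those at 2 SD. Of 280 values of single markers under these alternatives, 266 moved by less than the median SD of a ratio between spots and 14 by more, none across 0 among those past 2-fold. Bmp5, near 0, did change sign: for KO/WT at 3 weeks it was -0.0038 with quantile normalization, which leaves 7 markers higher and 3 lower, and for 6 over 3 weeks in WT it was 0.03 with quantile normalization, 0.06 with normexp and quantile normalization and 0.03 with median scaling, which leaves 7 lower and 3 higher. With normexp and quantile normalization Reln stood at -0.76 in KO and -0.43 in WT for 6 over 3 weeks, and 2 markers in place of 3 were 2-fold lower in KO. Given a variance prior with a trend, limma called 4 genes for genotype, none of them a marker. For age, unadjusted p-values under 0.05 were found for 4 markers and 3315 genes with that prior, and for 4 markers and 2883 genes over genes measured on all 4 arrays, against 1 and 2307, and no marker was called after adjustment. Signal over background limits the dim markers Reln, Bmp5 and Hgf. No paired analysis was possible because each group had 1 array and the labels give no replicate numbers.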
